A study of Mus musculus with 51 samples.

Results

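Tumor CD8 T cells that carried neither CD103 nor CD69 were compared with splenic CD8 T cells of the subset labelled EM, which stands for effector memory. CD103, encoded by Itgae, is an integrin subunit that binds E-cadherin on epithelium, and CD69 is an activation antigen that opposes exit from tissue. Cells without either are, by surface phenotype, those in a tumor most like circulating T cells. They are called DN below. The members were taken from the titles: 8 DN libraries of mammary tumors (3 at week 2, 3 at week 4 and 2 at week 6, with each week weighted equally) and 3 libraries titled Cntrl Spleen T EM, 11 of the 43 libraries of the untreated table and of 51 in the whole series. Week 1 was left out of the comparison.

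The tumors were of AT3-OVA, a mouse mammary carcinoma line made to express ovalbumin as a model antigen, and neither group received a treatment. Every cell profiled was sorted as CD8+, and the spleen libraries carry the same cell line and cell type entries as the tumor ones, so the labels used here do not settle whether the spleen donors bore tumors. No strain, genotype, age or gating marker for EM is given, nor whether a replicate was 1 animal or a pool, so p-values reflect only how far these samples lie apart, which may be technical. Comparisons are also given with the other tumor subsets of the same weeks, CD103+CD69+ (DP, 10 libraries) and CD103-CD69+ (SP, 8 libraries), and with the spleen subset labelled CM, for central memory (3 libraries).

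Memory CD8 T cells are commonly divided by where they travel. Effector memory cells circulate through blood and spleen, keep cytotoxic programs ready under T-bet and the repressor ZEB2, and express receptors such as CX3CR1 and S1PR5 that hold them in the circulation. Tissue-resident cells lose those receptors and, under TGF-beta and local cytokines, gain CD103 and CD69. The comparison asks in what respects the least resident-like cells of a tumor differ from circulating effector memory cells.

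The deposited values were normalized and logged, so read depth and counting error are unknown, and each value below is a log2 difference from the mean of the 3 EM libraries unless another reference is named. Levels of different genes were not compared, because the gene means of the table, from -28.0 to 39.4, are not abundances. The libraries held fewer independent directions than their number allows (a residual rank of 18 where 28 was possible), and the tests were adjusted for this. DN week 4 replicates 1 and 2 nearly coincided: the SD of their difference over genes was 0.039, where the other 41 within-group pairs had 0.196 to 0.711. Whether that lies within sampling noise could not be tested without counts, so counts are also given with the 2 averaged as 1 library. The labels give each library a code, and the codes form 2 runs: the EM codes lie between 11 and 42 and the DN codes between 46 and 75. All DN libraries are in the higher run, and all DP, SP and spleen libraries are in the lower one except 3 of DP and SP. What a code stands for is not stated. For DN against EM or CM, run and comparison cannot be told apart within the groups compared. DN against DP or SP is nearly the same split, and a fit with the run as a term rests on those 3 libraries.

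In total 2062 of 10560 genes (19.5%) differed at an adjusted p below 0.05, 1122 higher in DN (10.6%) and 940 lower (8.9%), with a median difference over all genes of -0.01. With week 4 replicates 1 and 2 averaged the counts were 1091 and 910, and with week 4 left out they were 1245 and 743. Quantile normalization gave 943 higher and 1196 lower, so the balance of directions rests on the scaling. The EM group had the most weight: without EM replicate 1 the counts were 613 and 429, and without EM replicate 3 they were 567 and 371. With the run of codes as a term 345 were higher and 199 lower, of which 538 were among the 2062. The 8 DN libraries lay wholly above the 3 EM libraries in 965 genes (9.14%) and wholly below them in 936 (8.86%).

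The genes that define the sort come first. Cd8a differed by 0.02 (SE 0.11, adjusted p = 0.942) and Cd8b1 by 0.11 (SE 0.26, adjusted p = 0.802). Itgae was lower in DN, with a difference of -2.01 (SE 0.46, adjusted p = 0.00475), with DN libraries from -2.66 to -0.95 and EM libraries from -0.05 to 0.05. Its adjusted p was 0.0525 with the run of codes as a term. Cd69 differed by 0.42 (SE 0.30, 95% interval -0.21 to 1.05, adjusted p = 0.348), with overlapping groups. Of the genes by which memory subsets are usually told apart, Cd44, the receptor for hyaluronan, differed by 0.03 and Ccr7, the chemokine receptor of lymph node homing, by 0.72, and neither passed the test. Within the spleen the Ccr7 difference of EM from CM was -0.42 (adjusted p = 0.612), while Zeb2 was 3.27 higher in EM (adjusted p = 1.1e-07) and Cx3cr1 3.48 higher (adjusted p = 3.3e-07), so the EM label is borne by these effector genes, and Ccr7 did not pass between the spleen subsets.

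Zeb2, Cx3cr1 and Gzma, genes of the effector memory state, were among the 10 leading genes that were lower in DN. Zeb2, a zinc finger repressor that with T-bet drives terminal effector differentiation (chr2:44983632-45117395, minus strand, GRCm38), lay at -2.90, -2.69 and -2.49 as the lowest, median and highest of the 8 DN libraries, where the EM libraries lay at 0.01, -0.11 and 0.10. The groups did not overlap and the weeks were alike, at -2.64, -2.69 and -2.80. The difference was -2.71 (SE 0.22, adjusted p = 6.99e-08), a 6.56-fold lower value. Cx3cr1, the fractalkine receptor of circulating effector cells, lay from -3.25 to -2.13 in DN and from -0.22 to 0.20 in EM, a difference of -2.67 (SE 0.25, adjusted p = 5.18e-07). Gzma, a granule protease, lay from -3.45 to -2.07 in DN against 0.04, -0.29 and 0.25 in EM, a difference of -2.86 (SE 0.37, adjusted p = 2.58e-05). In these 3 genes every DN library was below every EM library.

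DN was not at the bottom of the order in all of them. Zeb2 differed by -0.20 between DN and DP (adjusted p = 0.38) and by 0.30 between DN and SP (adjusted p = 0.22), and Cx3cr1 by 0.10 and 0.13 (adjusted p = 0.73 and 0.68), so these tests did not separate DN from the other tumor subsets. Gzma was lower in DN than in DP, by -2.11 (adjusted p = 9.5e-06), and lower than in SP, by -1.72 (adjusted p = 0.0002). S1pr5, the sphingosine phosphate receptor that draws effector cells into blood, ran the other way: it was lower in DN than in EM by -2.94 (SE 0.59, adjusted p = 0.0019), with DN libraries from -3.99 to -1.94 and EM libraries at 0.18, -0.95 and 0.77, yet 3.50 higher in DN than in DP (adjusted p = 7.5e-06) and 3.56 higher than in SP (adjusted p = 1.3e-05). Against CM, Zeb2 differed by 0.55 in DN (adjusted p = 0.074) and Gzma by 0.87 (adjusted p = 0.1). The tests did not separate DN from CM for these 2 genes, and EM lay above both.

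The effector memory list held 12 measured genes, of which 6 were lower and 2 higher in DN, where 8.9% and 10.6% of all genes were, with a median of -0.32. Tbx21, which encodes T-bet, differed by -0.76 (SE 0.19, adjusted p = 0.00926), and its weeks were -0.56, -1.04 and -0.68. Prdm1 and Itgam were the other members that fell. Fgl2, an immunoregulatory fibrinogen-like protein of memory T cells, was 0.85 higher (SE 0.23, adjusted p = 0.012) and Bhlhe40, a transcription factor, was the other that rose. Eomes (0.05), Klf2 (0.08), Runx3 (0.11) and Id2 (0.16) did not pass. The fit with the run of codes as a term had 3 members lower and none higher, Tbx21 having an adjusted p of 0.151 and Fgl2 of 0.203. Without EM replicate 3 the list held 5 lower and 0 higher, and without EM replicate 1, 5 and 1. Against CM 6 of the 12 were higher in DN and none lower, where 12% and 9.54% of all genes were, with a median of 0.78.

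Some integrins and NK-type receptors were also lower. Itga4, the alpha chain of VLA-4, had its lowest DN library at -1.51 and lay from -0.11 to 0.09 in EM, with no overlap, a difference of -1.18 (SE 0.15, adjusted p = 1.78e-05). It was nevertheless 1.09 higher in DN than in DP (adjusted p = 1.4e-06) and 0.64 higher than in SP (adjusted p = 0.00038), which places DN between EM and the CD69+ subsets. The mean of Itga4 in CM was -1.69. Itgb2 differed by -0.84 and Itgal, its partner in LFA-1, by -0.40 (adjusted p = 1.53e-05 and 0.00369), the latter with an adjusted p of 0.128 with the run of codes as a term. Of 18 chemokine receptors and integrins 5 were lower and 2 higher (Itgav and Cxcr6), with a median of -0.27, where 8.9% and 10.6% of all genes were. Klrb1c, which encodes the NK receptor NK1.1, had the largest fall among the 9 NK-type receptors measured, -3.60 (SE 0.62, adjusted p = 0.000428), with DN libraries from -4.30 to -2.51 and EM libraries at 0.26, -0.74 and 0.48. In bulk samples fewer cells of a type and less RNA per cell cannot be told apart. Klrd1, the CD94 subunit of inhibitory and activating NK receptors, was the other that fell, by -0.98 (adjusted p = 0.00623), and its adjusted p was 0.0523 without EM replicate 3. The remaining 7 did not pass. Against DP 7 of the 9 were lower in DN and none higher, where 9.8% and 13.5% of all genes were. Against SP 4 were lower and none higher, where 8.33% and 8.64% of all genes were.

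**Figure D1:**
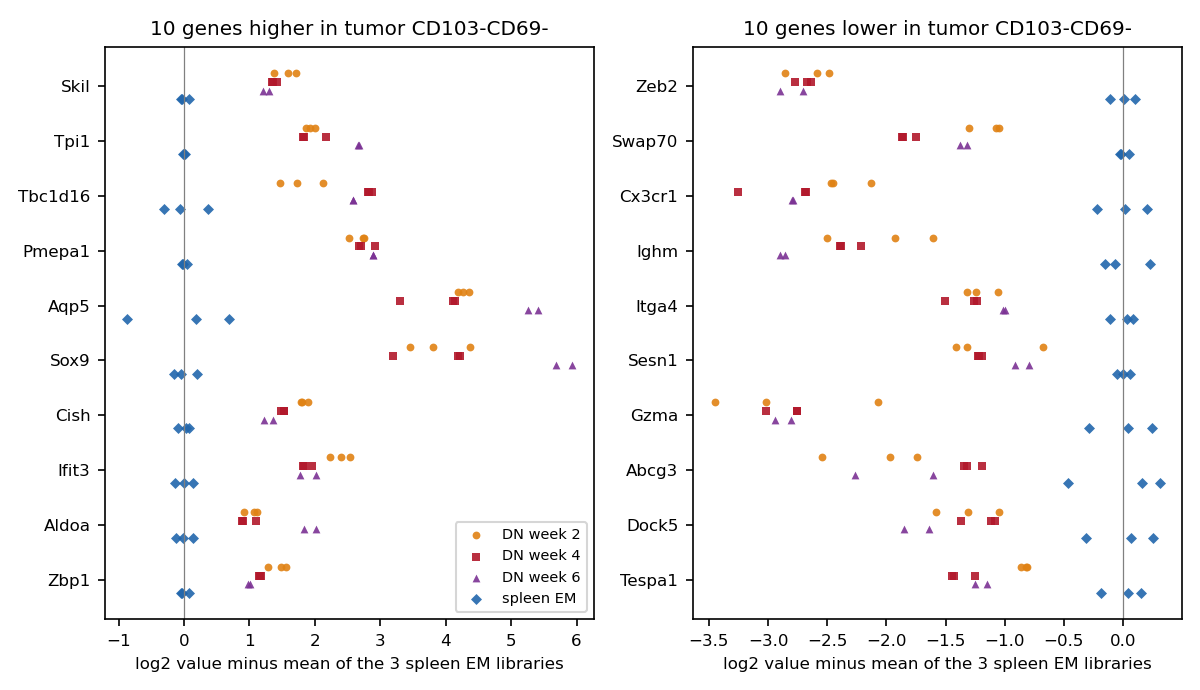
Values of the 10 genes with the lowest adjusted p in each direction, among called genes with a difference of at least 1 and no overlap between the groups. Each point is 1 library, the x axis is the log2 value minus the mean of the 3 spleen EM libraries, and DN stands for tumor CD103-CD69- cells. The DN points of Zeb2 sit between -2.90 and -2.49 and those of Pmepa1 between 2.53 and 2.93, while Sox9 and Aldoa reach their highest values at week 6.

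The other leading genes that were lower in DN have less defined places in effector memory. Swap70, a guanine nucleotide exchange regulator of cell migration, differed by -1.44 (SE 0.12, adjusted p = 1.25e-07), and was lower in DN than in DP by -0.88 and than in SP by -0.75 (adjusted p = 1.4e-06 and 1.1e-05), so it was lowest in DN among the tumor subsets. Sesn1, a stress-induced regulator of mTORC1, differed by -1.07, Dock5, a Rac exchange factor, by -1.42, and Tespa1, which acts in T-cell receptor signalling during thymic development, by -1.14 (adjusted p = 2.01e-05, 4.91e-05 and 8.78e-05). Abcg3, a transporter, differed by -1.77 (adjusted p = 3.36e-05). Means of CM relative to EM were -1.27 for Swap70, 0.23 for Sesn1, -1.76 for Dock5, -0.49 for Tespa1 and -0.82 for Abcg3. Ighm, the immunoglobulin heavy chain of IgM and a B-cell gene, differed by -2.41 (SE 0.23, adjusted p = 7.29e-07) and is taken up with the markers of other cells. All 10 leading genes in this direction were still called with the run of codes as a term.

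Most of the Gimap family was lower in DN. Gimap proteins are small GTPases of the lysosome and endoplasmic reticulum needed for the survival of resting T cells. Of 8 measured members 6 were lower in DN and none higher, with a median of -0.70, where 8.9% of all genes were lower. Gimap6 lay from -1.09 to -0.76 in the 8 DN libraries and at 0.02, -0.16 and 0.14 in EM, a difference of -0.88 (SE 0.14, adjusted p = 0.000286). Gimap8 differed by -0.94 (adjusted p = 0.00105), Gimap3 by -0.80, Gimap4 by -0.71 and Gimap1 by -0.37 (adjusted p = 0.00138, 0.000526 and 0.0104). Gimap5 (-0.23) and Gimap9 (-0.32) did not pass. The list's median stayed between -0.81 and -0.54 in each DN library, and 4 members were still lower with the run of codes as a term. The members are neighbouring paralogs, and how reads shared between them were counted is not given in the sources used here. Against SP 1 member was lower in DN (Gimap1, -0.32, adjusted p = 0.0039), where 8.33% of all genes were. Against DP 3 were higher, where 13.5% of all genes were. Against CM 6 were lower in DN and none higher, where 9.54% and 12% of all genes were. The list's median relative to EM was 0.04 over the CM libraries and -0.51 over those of naive cells.

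Interferon-stimulated genes were higher in DN, in the largest number of any list. Interferons signal through JAK kinases and STAT proteins to switch on antiviral effectors. Of 42 measured members 31 were higher and none lower (10.6% and 8.9% of all genes), the median was 0.91, and 30 members had every DN library above every EM library. Ifit3, an RNA-binding antiviral effector (chr19:34583531-34588731, plus strand), lay at 1.78, 1.98 and 2.53 as the lowest, median and highest in DN and at 0.01, -0.14 and 0.13 in EM. The groups were far apart, with a difference of 2.05 (SE 0.18, adjusted p = 2.25e-07). Zbp1, a sensor of left-handed nucleic acid, differed by 1.20 (SE 0.11, adjusted p = 3.54e-07), Mx1, a dynamin-like restriction factor, by 1.76 (adjusted p = 6.46e-07), Cmpk2, a mitochondrial nucleotide kinase, by 1.73 (adjusted p = 3.78e-06), and Isg20, an exonuclease that is also a member of the resident list, by 1.91 (adjusted p = 8.15e-07).

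Promoter letters are shown for 2 of these genes, because the interferon-activated complex binds paired GAAA letters. The sequences are from RefSeq on GRCm38.p6, run from 250 bases before to 50 bases after the start site, 5′ to 3′ on the gene's strand, and capitals mark matches to the core of the interferon-stimulated response element, which is GAAA, any 2 bases and GAAA again, on either strand. The Ifit3 promoter lies at chr19:34583279-34583578 on the plus strand and the Isg15 promoter at chr4:156200769-156201068 on the minus strand, where 3 matches overlap in 1 run. Isg15, a ubiquitin-like modifier, was chosen for display after its value, 2.16 (SE 0.26, adjusted p = 1.35e-05), was seen.
Ifit3: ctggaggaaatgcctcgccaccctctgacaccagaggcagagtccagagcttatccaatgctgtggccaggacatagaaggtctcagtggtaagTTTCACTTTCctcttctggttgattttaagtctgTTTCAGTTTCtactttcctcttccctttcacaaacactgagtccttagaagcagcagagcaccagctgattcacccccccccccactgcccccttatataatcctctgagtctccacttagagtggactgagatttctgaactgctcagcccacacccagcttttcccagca
Isg15: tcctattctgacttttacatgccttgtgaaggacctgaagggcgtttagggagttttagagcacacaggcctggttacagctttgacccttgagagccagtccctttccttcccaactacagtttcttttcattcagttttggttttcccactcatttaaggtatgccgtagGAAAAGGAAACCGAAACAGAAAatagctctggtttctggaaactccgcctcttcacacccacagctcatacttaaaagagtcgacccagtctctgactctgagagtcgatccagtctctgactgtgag

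The core was in 17 of the 33 list genes with a promoter in the table (51.5%), against 3.99% of all 27025 genes there and 1 of 25 genes of glycolysis and hypoxia. Among the interferon genes called higher it was in 12 of 22, and among the others in 5 of 11, so its presence in this window did not follow the call. A match is a description of letters, not of binding.

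The distance depended on which spleen subset was the reference. The same list in CM lay at a median of 0.55 above EM, the middle of 3 libraries from 0.52 to 0.60, and naive cells at 0.32, so EM was the lowest of these 3 spleen subsets. Between EM and CM no member was higher in EM and 20 were lower, where 8.21% and 7.19% of all genes were. Against CM 15 members were higher in DN and 2 lower, where 12% and 9.54% of all genes were, with Ifit3 1.08 higher (adjusted p = 0.00032) and Mx1 1.43 higher (adjusted p = 1e-05). Mx1 in naive cells had a mean of -2.09, below EM, so the spleen subsets were not in 1 order for all members. Within the tumor 9 members were higher in DN than in DP and 2 lower, where 13.5% and 9.8% of all genes were (23.3% in all). Against SP 15 were higher in DN and 1 lower, where 8.64% and 8.33% of all genes were. Ifit3 was 0.38 higher in DN than in DP (adjusted p = 0.036) and 0.53 higher than in SP (adjusted p = 0.0096), while Isg20 was lower in DN than in both, by -0.40 and -0.42 (adjusted p = 0.034 and 0.044). The DP and SP comparisons with EM share the EM libraries with that of DN. In that of DP 28 of the 42 members were higher and none lower, with a median of 0.86, where 29.2% of all genes were called (14% higher, 15.2% lower). In that of SP 27 were higher and none lower, with a median of 0.56, where 30.3% were called (16.1% higher, 14.2% lower). In the fit with the run of codes as a term 19 of the 42 were higher and none lower, with a median of 0.82.

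The list was not uniform, and 11 of its 42 members did not pass. Stat2, a subunit of the interferon-activated complex, differed by 1.12 (adjusted p = 0.000109) and Irf7, another member, by 0.97 (adjusted p = 0.000734). Irf9, the DNA-binding partner of Stat2, differed by 0.05 (adjusted p = 0.765) and Irf1, a target of interferon gamma, by -0.04 (adjusted p = 0.896). Among the receptors Ifngr1 was 1.08 higher (SE 0.16, adjusted p = 9.92e-05), with DN libraries from 0.94 to 1.25 and EM libraries from -0.03 to 0.03, whereas Ifnar1 differed by 0.00 (adjusted p = 0.991). These genes other than Ifngr1 were named after their values were seen. The list's median was 1.26, 0.72 and 0.85 at weeks 2, 4 and 6, and 3 of its 42 members differed between weeks, where 10.9% of all genes did. Genes of the list with close paralogs, such as Ifit, Oas and Gbp genes, are uncertain where shared reads could be split.

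Genes of TGF-beta feedback were among the firmest differences. TGF-beta signals through SMAD2 and SMAD3, and the cell answers with inhibitors of the same route. Skil, which encodes the SMAD corepressor SnoN (chr3:31095058-31122577, plus strand), had the lowest adjusted p of all genes, with DN libraries at 1.21, 1.37 and 1.71 as lowest, median and highest and EM libraries at -0.03, 0.08 and -0.05. The difference was 1.40 (SE 0.09, adjusted p = 1.14e-08), 2.63-fold. Pmepa1, a membrane protein that sequesters SMADs, lay from 2.53 to 2.93 in DN and from -0.02 to 0.04 in EM, a difference of 2.78 (SE 0.22, adjusted p = 5.5e-08). Smad7, the inhibitory SMAD, was 0.80 higher (SE 0.12, adjusted p = 0.000139) and Ski, a paralog of Skil, 0.48 higher (adjusted p = 0.0113). Of 18 measured members 7 were higher, where 10.6% of all genes were, and none lower, with a median of 0.36. Tgfb1, the ligand, was 0.55 higher (adjusted p = 0.00949), and the receptors Tgfbr1 (0.08) and Tgfbr2 (-0.07) and the effectors Smad2 (-0.24), Smad3 (-0.38) and Smad4 (-0.23) did not pass.

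The spleen subsets differed among themselves in these genes. Skil in CM was 1.04 above EM and in naive cells 1.38, and Pmepa1 in the same 2 groups was 2.10 and 2.72. Against CM the difference of DN was 0.36 for Skil (adjusted p = 0.0097) and 0.68 for Pmepa1 (adjusted p = 0.03), so most of the distance to EM was also seen in the spleen between EM and CM. In the tumor Skil was lower in DN than in DP, by -0.24 (adjusted p = 0.013), and than in SP, by -0.23 (adjusted p = 0.03), and Pmepa1 differed from them by 0.01 and 0.16 (adjusted p = 0.97 and 0.54). The fit with the run of codes as a term had 3 members higher. Without EM replicate 3 the list had 3 higher as well, with Ski at an adjusted p of 0.0596 and Tgfb1 of 0.0628, and without EM replicate 1 it had 5.

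**Figure D2:**
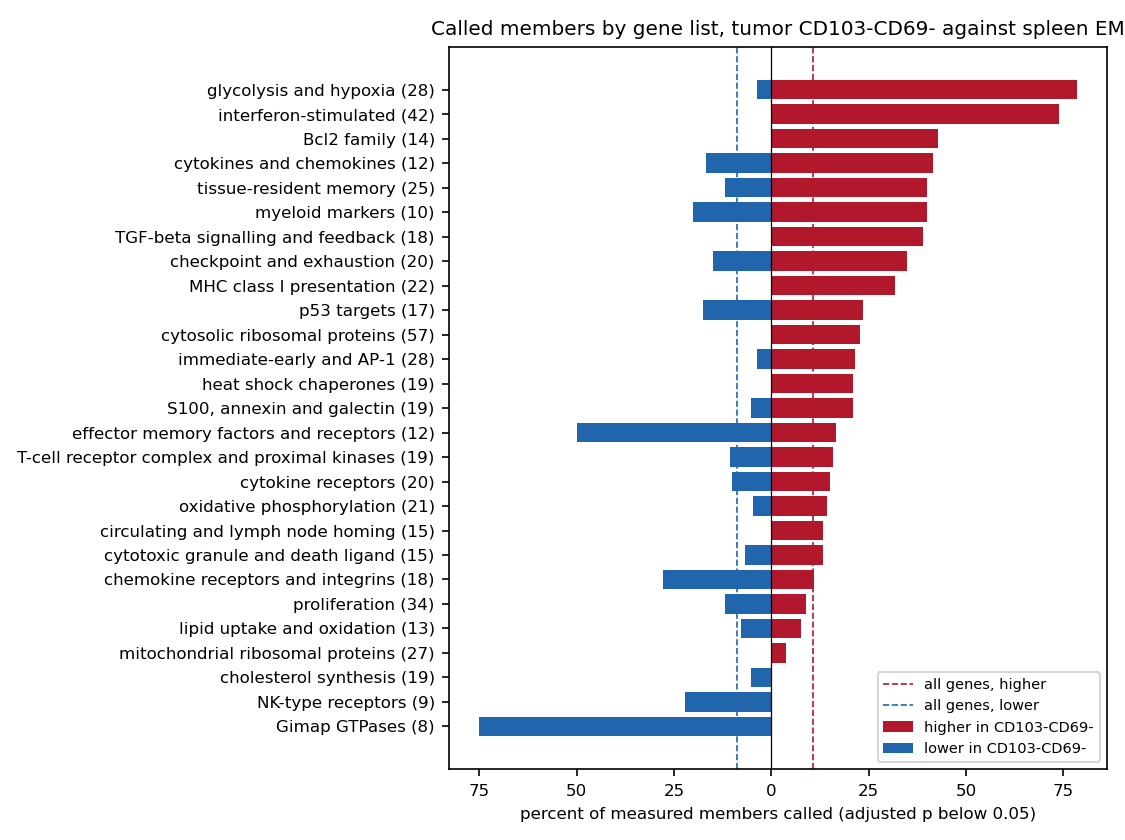
Percent of the measured members of each gene list (number in brackets) that were higher in DN (right) or lower (left) than in spleen EM at an adjusted p below 0.05. Lists with at least 8 measured members are drawn, and dashed lines give the share of all 10560 genes, 10.6% and 8.9%. The glycolysis, interferon and Gimap lists have the longest bars.

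Glycolysis and the response to hypoxia formed the other large group of higher genes. Glucose is turned to lactate by a chain of enzymes that HIF-1 induces when oxygen is low, together with genes such as Vegfa. Of 28 measured members 22 were higher and 1 lower, where 10.6% and 8.9% of all genes were, with a median of 0.75. Tpi1, which interconverts the triose phosphates, lay at 1.82, 1.96 and 2.67 as lowest, median and highest in DN and from -0.01 to 0.02 in EM, a difference of 2.18 (SE 0.15, adjusted p = 1.34e-08). Aldoa, the aldolase upstream of it, was 1.31 higher (SE 0.12, adjusted p = 3.36e-07), Pkm, the last enzyme to pyruvate, 1.01 higher (adjusted p = 8.15e-07) and Ldha, which makes lactate, 0.89 higher (adjusted p = 2.74e-05). Vegfa, the vascular growth factor, was 3.61 higher (SE 0.36, adjusted p = 8.15e-07), with DN libraries from 2.53 to 5.24. The member that was lower was Slc2a3, a glucose transporter (-0.65, adjusted p = 0.00362), while the transporter Slc2a1 was 0.75 higher (adjusted p = 0.00189). These 2 were named after their values were seen. The run of codes as a term left 12 members higher and none lower, with a median of 0.81.

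Promoters of 2 of these genes are printed for the same reason as above, with capitals for the hypoxia response core ACGTG on either strand. The Aldoa promoter shown lies at chr7:126799205-126799504 on the minus strand and is 1 of 3 in the table for that gene, with 1 match, and the Ldha promoter at chr7:46845554-46845853 on the plus strand is 1 of 2, with 5 matches, the palindrome CACGTG counting once on each strand.
Aldoa: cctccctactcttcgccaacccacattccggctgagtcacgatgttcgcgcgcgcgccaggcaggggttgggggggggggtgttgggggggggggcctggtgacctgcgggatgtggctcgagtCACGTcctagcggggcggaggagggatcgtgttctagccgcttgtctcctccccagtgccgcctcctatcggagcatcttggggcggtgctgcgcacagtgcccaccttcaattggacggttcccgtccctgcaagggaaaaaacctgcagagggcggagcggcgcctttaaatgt
Ldha: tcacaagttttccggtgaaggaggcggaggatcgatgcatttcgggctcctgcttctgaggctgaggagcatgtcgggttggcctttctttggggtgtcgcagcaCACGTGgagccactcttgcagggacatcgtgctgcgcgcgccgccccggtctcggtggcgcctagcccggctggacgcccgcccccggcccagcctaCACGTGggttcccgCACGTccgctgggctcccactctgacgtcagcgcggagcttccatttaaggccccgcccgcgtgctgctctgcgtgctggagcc

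The core was in a promoter of 19 of the 25 list genes that the table holds (76.0%), against 21.8% of all genes there and 2 of 33 interferon genes. It was in 16 of 21 members called higher and in 3 of the other 4. Both promoters shown are ones that hold it. The core was in 2 of the 3 promoters of Aldoa and in 1 of the 2 of Ldha, and the 1 promoter of Tpi1 did not hold it.

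The week moved with this group, and the epithelial markers are given beside it. The list's median in the 3 libraries of week 2 was 0.59 to 0.62, in those of week 4 0.54 to 0.71 and in the 2 of week 6 1.04 and 1.22. Of the 28 members 9 differed between weeks, where 10.9% of all genes did. Vegfa was 2.72, 3.12 and 5.01 higher than EM at weeks 2, 4 and 6 (adjusted p over weeks 0.0091), Aldoa 1.04, 0.97 and 1.92 (adjusted p 0.0014) and Bnip3, a mitophagy receptor induced by hypoxia, 0.48, 0.72 and 2.56 (adjusted p 0.0037). All 5 measured markers of tumor epithelium were higher in DN, where 10.6% of all genes were. Their median was 3.01, 4.14 and 4.05 in the week 2 libraries, 2.58 to 2.82 at week 4, and 5.16 and 5.19 at week 6, against -0.12, 0.18 and -0.05 in EM. Vegfa, Tpi1, Aldoa, Pkm, Ldha and the 5 epithelial markers were highest at week 6. Among them Vegfa, Tpi1, Aldoa, Pkm, Krt19 and Epcam differed between weeks, while Ldha, Krt8, Krt18 and Cdh1 did not pass that test. Of all 1151 genes that differed between weeks, 635 were highest at week 6. From week 2 to week 4 the epithelial medians were lower while the glycolysis medians overlapped. The part of other cells' RNA in this group was not tested.

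Against CM, where 12% of all genes were higher, the glycolysis list had 12 members higher in DN and none lower, with Tpi1 1.67 higher (adjusted p = 5.8e-07), Aldoa 0.96 (adjusted p = 1.6e-05) and Vegfa 1.18 (adjusted p = 0.022). Vegfa in naive cells was 3.31 above EM, so EM was the low group for that gene in the spleen. The other tumor subsets were closer: Tpi1 differed from them by 0.12 and -0.10 (adjusted p = 0.44 and 0.59), and 6 members were higher in DN than in DP, where 13.5% of all genes were, and 1 lower.

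The epithelial markers need their own account, since Krt8, Krt18, Sox9 and Aqp5 had some of the largest differences of the table. Krt8, a keratin of simple epithelium, lay from 4.54 to 6.17 in DN and at -0.15, 0.47 and -0.31 in EM, a difference of 5.51 (SE 0.53, adjusted p = 6.35e-07), and Krt18, its partner, was 4.79 higher (adjusted p = 2.59e-06). Sox9, a transcription factor of epithelial progenitors, was 4.52 higher (SE 0.38, adjusted p = 1.25e-07) and Aqp5, a water channel of glandular epithelium, 4.48 higher (SE 0.38, adjusted p = 1.25e-07). Cdh1, which encodes E-cadherin and is a member of the resident list as well, was 2.95 higher (adjusted p = 6.89e-05) and Epcam 2.31 higher (adjusted p = 0.00012). Krt19 was 3.83 and 5.18 above EM at weeks 2 and 6 but at -1.17 at week 4, and differed between weeks (adjusted p = 0.00013).

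The spleen subsets also differed in these genes. EM lay below CM by a Krt8 value of -4.08 (adjusted p = 0.00031), a Sox9 value of -3.16 (adjusted p = 0.00017) and an Aqp5 value of -2.96 (adjusted p = 0.00028), although neither is tumor tissue. Against CM, DN was 1.43 higher in Krt8 (adjusted p = 0.057), 1.36 in Sox9 (adjusted p = 0.015) and 1.52 in Aqp5 (adjusted p = 0.0069). The list's median was 3.46 over the DP libraries and 3.37 over those of SP, beside 3.53 in DN, and Krt8 was 1.59 higher in DN than in DP (adjusted p = 0.0043). The part of the scaling in these spleen differences was not tested. Tbc1d16, a GTPase-activating protein for Rab proteins, was also lowest in EM, at 2.40 above EM in DN (SE 0.17, adjusted p = 1.64e-08), 2.67 in CM and 2.87 in naive cells.

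Markers of other cell types moved in both directions. B-cell genes were lower: 3 of 4, where 8.9% of all genes were, with a median of -2.30. Among them were Ighm at -2.41 and Cd79a at -2.27 (adjusted p = 0.00774). The list ran from -2.85 to -1.60 in the DN libraries and from -0.71 to 0.84 in EM. DN was also lower than CM in 2 members, where 9.54% of all genes were. The part of B-cell RNA in other differences was not tested. Of 10 myeloid markers 4 were higher and 2 lower, beside 10.6% and 8.9% of all genes, with a median of 0.06. C1qb (2.69), C1qc (1.97), Apoe (1.00) and Cd68 (0.97) were higher, and Itgax (-1.64) and Lyz2 (-0.89, adjusted p = 0.0492) lower. Lyz2 lost its call when any of the EM libraries was left out, and also without any of the DN libraries other than week 2 replicate 1, and its weeks differed, at -2.07, -0.58 and -0.01 (adjusted p = 0.0057). EM replicate 2 lay at 2.50 in C1qb and 1.56 in C1qc, within the range of DN, and both calls were lost without EM replicate 1 or 3 (adjusted p between 0.0751 and 0.171). Both were also lost with the run of codes as a term, and that of C1qb after quantile normalization. C1qb was at 4.67 in CM and 3.88 in naive cells, and C1qc at 2.40 and 1.78. Of the 10 markers 4 were lower in EM than in CM and none higher, where 7.19% and 8.21% of all genes were. Against CM 1 was higher in DN and 2 lower, where 12% and 9.54% of all genes were. The call of Apoe was lost without EM replicate 1 (adjusted p = 0.0947) or 3 (0.171), with week 4 left out (0.0591), with week 1 included (0.0811) and with the run of codes as a term (0.249), and that of Cd68 with the run of codes as a term (0.103). No member of 7 MHC class II genes was called. Foxp3, the factor of regulatory T cells, was lower by -2.24 (adjusted p = 0.00126), with weeks of -0.76, -3.82 and -2.16, and Ikzf2 by -1.23 (adjusted p = 0.0245, and 0.0948 and 0.116 without EM replicate 1 and 3). Cd4 (-0.68) and Il2ra (0.10) did not pass. The T-cell receptor list was near level, with a median of 0.07 and 3 of 19 members higher and 2 lower, beside 10.6% and 8.9% of all genes.

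**Figure D3:**
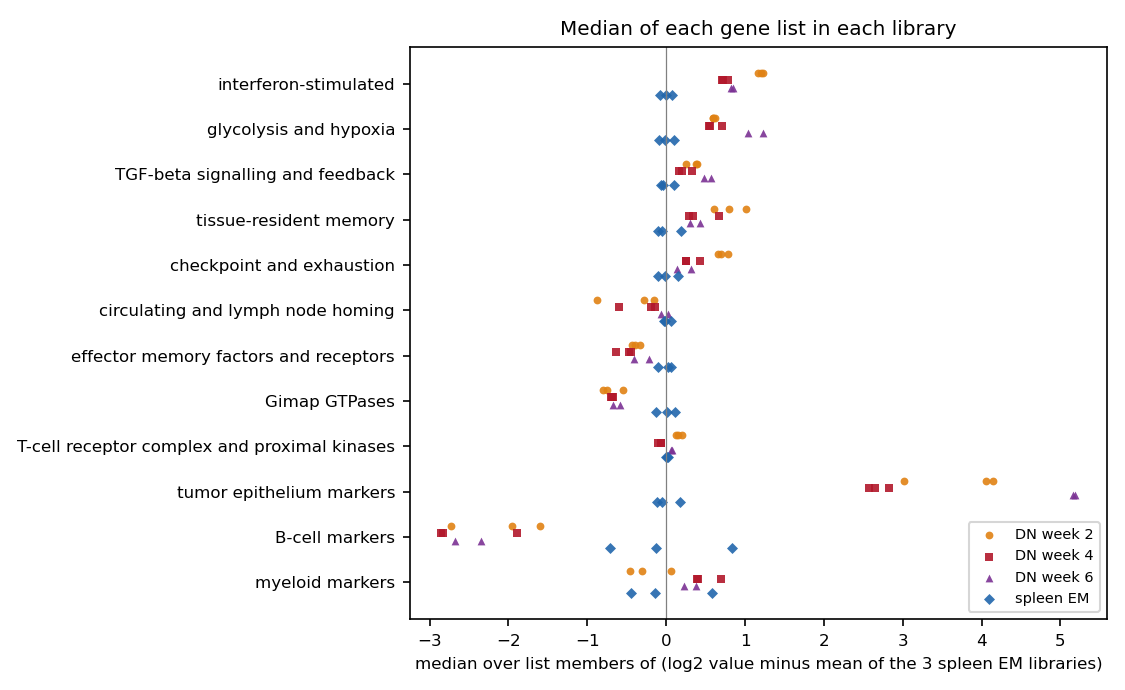
Median of each gene list in each of the 11 libraries, on the x axis as the log2 value minus the mean of the 3 spleen EM libraries. Points are libraries, coloured by DN week or spleen EM. The interferon medians of DN lie between 0.71 and 1.23 and the epithelial medians between 2.58 and 5.19, with week 6 highest, while the T-cell receptor list lies near 0.

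Some genes of tissue residency were higher in DN than in EM, although the sort excluded CD103 and CD69. Of 25 measured members 10 were higher, where 10.6% of all genes were, and 3 lower, which is near the 8.9% of all genes, with a median of 0.53. Litaf, an endosomal regulator that is a core residency gene in mice, lay from 1.17 to 2.06 in DN and at -0.05, 0.21 and -0.16 in EM, a difference of 1.56 (SE 0.17, adjusted p = 2.39e-06). Inpp4b, a phosphoinositide phosphatase, was 0.94 higher (adjusted p = 2.09e-05) and Isg20, above, 1.91. P2rx7, the ATP-gated channel, was lower by -2.12 (SE 0.33, adjusted p = 0.000185), and lowest at week 4, at -3.12 against -1.88 and -1.37. Itgae was another that fell, and Zfp683, which encodes Hobit (-0.69), and Itga1, which encodes CD49a (0.23), did not pass. The run of codes as a term left 6 members higher and 1 lower.

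Most of this list was lower in DN than in the CD69+ cells. Against DP 17 members were lower in DN and 1 higher, and against SP the counts were the same, 17 and 1, where 9.8% and 8.33% of all genes were lower. The list holds Itgae and Cd69, which encode the proteins by which DN, DP and SP were sorted, and no count was made without them. Litaf was lower in DN by -1.07 than in DP (adjusted p = 3.1e-06) and was also lower than in SP (adjusted p = 1.3e-05), and Inpp4b by -0.48 and -0.79 (adjusted p = 0.00038 and 5.4e-06). The list medians of the DN libraries ran from 0.29 to 1.01, those of DP from 1.06 to 1.73 and those of SP from 0.91 to 1.57, and those of EM from -0.10 to 0.19.

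The circulating genes showed the complement of this. Of 15 genes of circulation and lymph node homing 2 were higher in DN than in EM and none lower, with a median of -0.16, so the list was near the background. They were Bcl2, an inhibitor of apoptosis (0.75, adjusted p = 0.00303), and Ly6c2, a surface protein of memory cells (0.94, adjusted p = 0.021), and both calls were lost with the run of codes as a term (adjusted p = 0.128 and 0.196), that of Ly6c2 also without EM replicate 1 or 3 (0.0731 and 0.0584). Against DP, in contrast, 13 of the 15 were higher in DN and none lower, and against SP also 13 and none, where 13.5% and 8.64% of all genes were higher. Ly6c2 was 1.17 higher in DN than in DP (adjusted p = 0.0002) and 1.91 higher than in SP (adjusted p = 3.5e-06). Tcf7 (-0.49), S1pr1 (-0.33) and Il7r (-0.49) did not pass against EM.

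**Figure D4:**
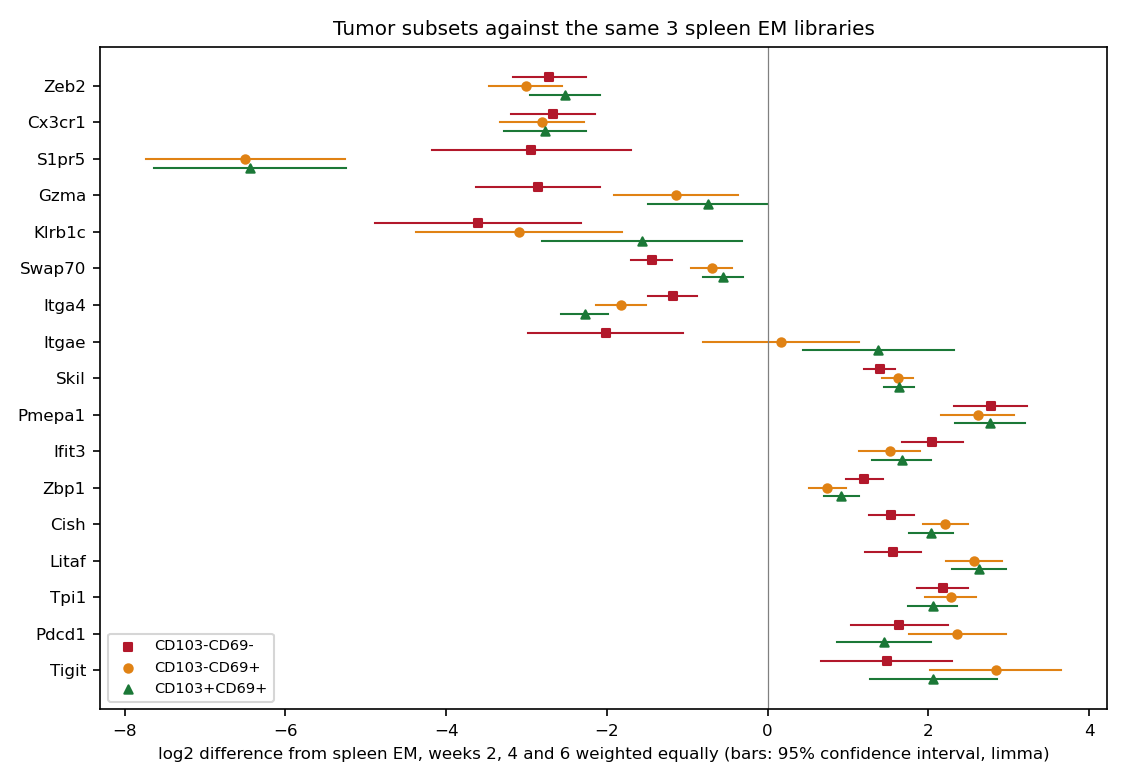
Log2 difference from spleen EM of the 3 tumor subsets at weeks 2, 4 and 6, weighted equally, with 95% confidence intervals from limma. All 3 subsets are compared with the same 3 EM libraries, so their distances from EM share an error. For Zeb2, Pmepa1 and Tpi1 the subsets lie together, while for S1pr5 and Itga4 the DN value lies nearer to EM and for Gzma and Swap70 farther from it.

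Several genes of the checkpoint and exhaustion list, Pdcd1, Lag3 and Tigit among them, were higher in DN than in EM. Pdcd1, which encodes PD-1, lay from 1.24 to 2.15 in DN and at 0.06, -0.26 and 0.20 in EM, a difference of 1.64 (SE 0.29, adjusted p = 0.000578). Lag3 was 1.74 higher (adjusted p = 0.00608), Tigit 1.48 (adjusted p = 0.0113) and Tox, a chromatin factor of the exhausted state, 0.93 (adjusted p = 0.00284), and none of these groups overlapped. Cd160, a receptor shared with NK cells, was lower, by -1.23 (adjusted p = 0.00197). Of 20 measured members 7 were higher and 3 lower (10.6% and 8.9% of all genes), with a median of 0.36, and the other 10, with Ctla4 among them, did not pass. In the fit with the run of codes as a term Pdcd1 alone was still higher (adjusted p = 0.0145), with Lag3 at an adjusted p of 0.0654, Tox at 0.0782 and Tigit at 0.116. The counts without EM replicate 1 were 3 and 1 and without EM replicate 3 they were 4 and 1, Tigit having an adjusted p of 0.0524 without EM replicate 1. Quantile normalization gave Lag3 an adjusted p of 0.133. Against SP, where 8.33% of all genes were lower, 15 members were lower in DN and none higher, among them Tigit (-1.36, adjusted p = 0.0027) and Pdcd1 (-0.72, adjusted p = 0.026), and against DP, where 9.8% of all genes were lower, 8 were lower and 1 higher.

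Some effector molecules were higher in DN than in EM and others lower. Ccl3, a chemokine of activated T cells, lay from 1.78 to 2.74 in DN and from -0.05 to 0.03 in EM, a difference of 2.17 (SE 0.37, adjusted p = 0.000443), and Tnf was 1.06 higher (adjusted p = 0.00158). Ccl5, which memory cells store, was lower by -0.89 (adjusted p = 0.00489), and yet 1.22 higher in DN than in DP (adjusted p = 7.5e-06). Its adjusted p was 0.0576 with the run of codes as a term. Of 12 cytokines and chemokines 5 were higher and 2 lower (10.6% and 8.9% of all genes), and Ifng (0.71) did not pass. The higher members numbered 3 without EM replicate 1, 2 without EM replicate 3, 3 after quantile normalization and 2 with the run of codes as a term. Of 15 cytotoxic genes 2 were higher and 1 lower, near the 10.6% and 8.9% of all genes. Fasl (0.62, adjusted p = 0.00405) and Tnfsf10, which encodes TRAIL (0.64, adjusted p = 0.049), were higher and Gzma was lower. Tnfsf10 lost its call under 11 of the alternatives, among them leaving out EM replicate 1 (adjusted p = 0.12), 2 (0.137) or 3 (0.0875), DN week 2 replicate 2 (0.0626), DN week 4 replicate 3 (0.0633) and DN week 6 replicate 1 (0.0652) or 2 (0.0641). Gzmb (-0.19) and Prf1 (1.05) did not pass.

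Cish, the SOCS-family brake on cytokine and T-cell receptor signalling, was among the 10 leading higher genes. It lay from 1.22 to 1.89 in DN and at 0.02, -0.09 and 0.07 in EM, a difference of 1.54 (SE 0.14, adjusted p = 2.1e-07), and was 1.08 higher than in CM (adjusted p = 1.6e-05). DN was below the other tumor subsets, by -0.49 against DP and -0.67 against SP (adjusted p = 0.00099 and 0.0001). Among 20 cytokine receptors 3 were higher and 2 lower, near the 10.6% and 8.9% of all genes, and 1 was higher without EM replicate 2 or with the run of codes as a term. Il2rb, the shared beta chain of the IL-2 and IL-15 receptors, was 0.58 higher (adjusted p = 0.0145, and 0.0538 without EM replicate 2) and Il18rap, a subunit of the IL-18 receptor, lower by -0.97 (adjusted p = 0.0078). Both calls were lost with the run of codes as a term (adjusted p = 0.179 and 0.178).

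Growth and cell cycle genes were mixed. Of 34 proliferation genes 3 were higher and 4 lower, near the background, with 2 lower without EM replicate 1 and 0 without EM replicate 3. The 3 were the replication licensing genes Mcm5 (0.82, adjusted p = 0.000802), Mcm7 (0.33) and Mcm2 (0.39), and the 4 were the mitotic genes Cdk1 (-1.50, adjusted p = 0.00585), Ccna2 (-0.71), Kif20a (-0.71) and Tpx2 (-0.69). Mki67 differed by -0.01. Without EM replicate 3 the adjusted p of Cdk1 was 0.0716, of Kif20a 0.0826 and of Ccna2 0.229, and Ccna2 had 0.126 without EM replicate 1. Immediate-early genes also rise when tissue is dissociated. They had 6 members of 28 higher (2 without EM replicate 1 or 3) and 1 lower, beside 10.6% and 8.9% of all genes. Egr1 was 1.15 higher (adjusted p = 9.38e-05) and Fosl2 1.04 (adjusted p = 0.00197). Jun (1.82), Fosb (2.10) and Atf3 (2.15) had overlapping groups, because EM replicate 2 lay at 1.46, 1.86 and 1.44. Their calls were lost without EM replicate 1 (adjusted p = 0.117, 0.158 and 0.0715) or 3 (0.177, 0.24 and 0.116). The list's median was 0.74, -0.03 and 0.49 at weeks 2, 4 and 6.

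The weeks of DN were also compared directly, as a contrast among the DN libraries. In total 1151 of 10560 genes (10.9%) differed between weeks 2, 4 and 6. Week 4 was the lowest of the 3 weeks in 809 of them and week 6 the highest in 635, and 2 of the 3 week 4 libraries are the pair that nearly coincided. The 5 genes with the lowest p, Gorab, Blcap, Rad9b, Decr2 and F2rl3, were all low at week 4. Gorab, a Golgi protein, lay at -2.76, -2.71 and -2.42 in the week 4 libraries, and between -0.21 and 0.80 in the other 5, within or above the EM range in most (adjusted p = 1.4e-05). F2rl3, the thrombin receptor PAR4, lay at -3.16, -3.13 and -3.21 at week 4 and between -0.23 and 1.27 elsewhere (adjusted p = 8e-05). Decr2, a peroxisomal reductase of fatty acids, was 0.98 and 1.53 above EM at weeks 2 and 6 and at -1.74 at week 4. None of the 5 passed for the difference between DN and EM averaged over the weeks, and Decr2 did with week 4 left out (adjusted p = 0.00849). Set against EM by week, 793 genes were higher (7.51%) and 541 lower (5.12%) at week 2. At week 4 the counts were 723 (6.85%) and 1202 (11.4%), and at week 6 they were 1014 (9.6%) and 473 (4.48%), 14.1% in all.

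**Figure D5:**
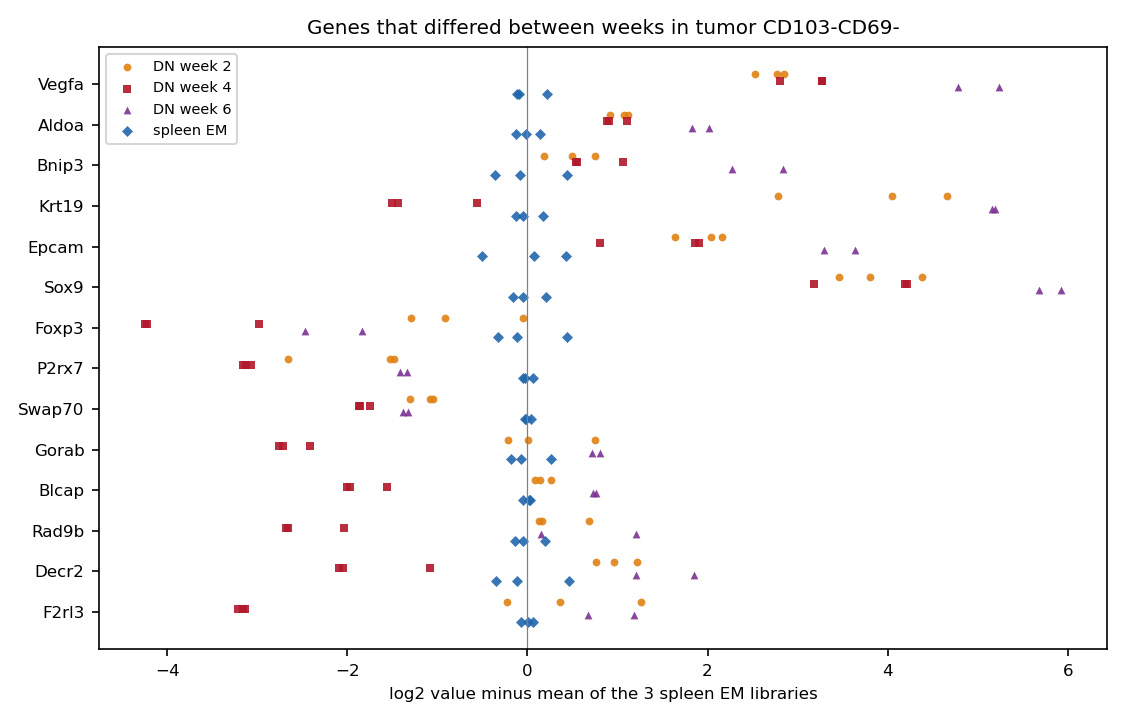
Genes that differed between weeks 2, 4 and 6 in DN, each point a library, with the log2 value minus the mean of the 3 spleen EM libraries on the x axis. Vegfa, Bnip3, Epcam and Sox9 are highest at week 6. Gorab, Blcap, Rad9b, Decr2 and F2rl3 are low in the 3 week 4 libraries.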

How the data were processed

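The deposited table of untreated cells holds values on what is taken, from their range, as a log2 scale, which the authors had normalized before they were deposited, and no log base or method is given in the sources used here. Per the labels' protocols, 10 ng of RNA of each sorted sample went into QuantSeq 3' libraries. The submitters' processing notes name HISAT2, HTSeq and mm10. Depth per sample is unknown, so no counting interval could be given.

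The 8 DN and 3 EM libraries were grouped by title and matched to columns by code. limma 3.58.1 in R 4.3.3 (trend and robust options, statmod 1.5.0) fitted means of the 15 groups with no filter on low values, and p-values were adjusted by Benjamini-Hochberg over all 10560 genes. The call threshold was 0.05. Residual degrees of freedom were multiplied by 0.6429, the ratio of residual rank 18 to 28, and residual variances divided by it; why the directions are fewer is not given in the sources used here. The test was run on simulated data of this shape first.

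Named genes are the 10 in each direction with the lowest adjusted p (difference of at least 1, no overlap), up to 5 called members of each of 34 lists, the sort genes, the markers Zeb2, Ifit3 and Skil, and the 5 leading genes over weeks. Members and lists were chosen with earlier results of these data known. Other list members named were chosen after their values were seen. Coordinates are of GRCm38. Alternatives were quantile normalization, median rescaling, unreduced degrees of freedom, other sets of libraries, the run of codes or the replicate number as a term, and a filter. Averaging or leaving out week 4 libraries was added after seeing the data. The checkpoint-treated libraries were not used here. A few genes that the naming rule covers are not reported here.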

Additional observations from a re-analysis of the deposited data

Results flagged for a closer look

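In 25 of 136 named genes, 5 of them named by this test, the DN weeks differed in the direct test, where 10.9% of all genes did. The values are the highest minus the lowest week, on the log2 scale. The widest were Krt19 at 6.34 and F2rl3 at 4.09, followed by Gorab at 3.39, Decr2 at 3.27, Rad9b at 3.14, Foxp3 at 3.06 and Blcap at 2.59. Vegfa spanned 2.29, Bnip3 2.08, Fas 2.05, Sox9 1.94, Epcam 1.94, P2rx7 1.74, Apoe 1.60 and Bbc3, a p53 target that promotes cell death, 1.36. Tbc1d16 spanned 1.07, Aldoa 0.957, Pkm 0.77, Tpi1 0.736, Ndufb8, a subunit of respiratory complex I, 0.723, Swap70 0.681, Smad7 0.677 and the mitochondrial ribosomal gene Mrpl51 0.66. The chaperones Hspa5 and Calr spanned 0.543 and 0.489. Gorab, Blcap, Rad9b, Decr2, F2rl3, Krt19, Foxp3 and Fas were lowest at week 4, where 2 of the 3 libraries nearly coincide.

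In 4 of 170 tests over the 8 DN libraries, each of 1 gene or 1 list, 1 library stood apart from the rest, where chance gives about 1 in 20. Rrm2b, a p53-induced nucleotide reductase, was at -1.37 in week 6 replicate 1. Fasl was at 0.217 in week 6 replicate 2, C1qc at 0.881 in week 2 replicate 2 and Cd2, a T-cell adhesion receptor, at -0.00585 in week 2 replicate 3.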

How the results depend on the processing

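Over 23 alternatives no named gene changed direction where it was called. Leaving out 1 library gave 567 to 1273 higher and 371 to 1058 lower genes, the lowest counts without EM replicate 3 (567 and 371) and EM replicate 1 (613 and 429). Unreduced degrees of freedom gave 1879 and 1782, the run of codes as a term 345 and 199, and fitting only the DN and EM groups 776 and 463. Quantile normalization gave 943 and 1196, moving the higher share of calls from 54.4% to 44.1%. Week 4 left out gave 62.6% higher. Of 136 named genes 63 lost their call with the run as a term, 38 without EM replicate 3, 28 without EM replicate 1, 28 with only DN and EM in the fit and at most 10 under any other alternative, and the cause was not tested. The 136 include genes that had no call to lose, namely Cd8a, Cd8b1, Cd69, Cd44, Ccr7 and the 5 leading genes over weeks. The 20 leading genes kept their calls with the run as a term. With the replicate number as a block the counts were 1301 and 1154. Whether the numbers pair the samples is not known. Of 15 same-numbered pairs of libraries among the DN weeks and EM, 1 correlation of deviations was over 0.1 (range -0.428 to 0.323). Deviations within groups this small are not independent, and DN was not set against DP or SP, so these values do not decide it. Without depth, low values cannot be told from noise.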

Other observations

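Of 57 cytosolic ribosomal protein genes 13 rose in DN against EM, where 10.6% of all genes did, none fell and 44 did not pass, with a median of 0.28. Rpl12 (0.97, adjusted p = 0.000526), Rpl5 (0.75, adjusted p = 0.00418) and Rps20 (0.77, adjusted p = 0.00537) led them. Among the spleen subsets 27 of the 57 were lower in EM than in CM, where 7.19% of all genes were. In DN 17 were lower than in CM, where 9.54% of all genes were. Of 27 mitochondrial ribosomal genes 1 rose. The count of higher cytosolic members was 6 with the run of codes as a term, 6 without EM replicate 1 and 4 without EM replicate 3. These genes have many processed pseudogenes, and reads shared with them are uncertain.

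Genes of MHC class I presentation rose in 7 of 22 members and fell in none, where 10.6% and 8.9% of all genes did. Psmb10, an immunoproteasome subunit, was 0.90 higher (adjusted p = 0.000368) and Tapbp, the chaperone tapasin, 0.52 (adjusted p = 0.00187). The count of higher members was 1 with the run of codes as a term and 3 without EM replicate 1 or 3. Of 14 Bcl2 family members 6 rose and none fell, beside 10.6% and 8.9% of all genes. The 6 were Bcl2 and Bcl2l1 (0.54), which protect cells, and Bbc3 (0.94), Bax (0.67), Pmaip1 (0.93) and Bnip3 (1.25), which promote death or mitophagy. The calls of Bcl2l1, Bbc3, Bnip3 and Pmaip1 were lost with the run of codes as a term (adjusted p between 0.0782 and 0.12), and that of Pmaip1 without EM replicate 1 (0.0899) or 3 (0.144). Of 17 p53 targets 4 rose and 3 fell, beside 10.6% and 8.9% of all genes. Cdkn1a, which encodes the cell cycle inhibitor p21, was highest at 1.95 (SE 0.29, adjusted p = 0.00012), with DN libraries from 1.11 to 3.03. The 3 that fell were Sesn1, Fas and Rrm2b. Fas, at -1.01, had weeks of -0.21, -2.27 and -0.56 and an adjusted p of 0.361 with week 4 left out. Oxidative phosphorylation subunits (3 of 21 higher, 1 lower) and cholesterol synthesis genes (0 of 19 higher, 1 lower) lay near the background of 10.6% and 8.90%.

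The following lists were also counted. Heat shock chaperones had 4 of 19 higher (10.6% of all genes) and none lower, all 4 with overlapping groups. The count was 1 without EM replicate 1 or 3, 7 without EM replicate 2 and 0 with the run of codes as a term. S100, annexin and galectin genes had 4 of 19 higher (2 without EM replicate 3) and 1 lower, beside 10.6% and 8.9% of all genes. Lipid uptake and oxidation genes had 1 of 13 higher (Fabp5) and 1 lower (Acadm), near those shares. Both calls were lost without EM replicate 3, with the run of codes as a term and with only DN and EM in the fit. That of Fabp5 was also lost after quantile normalization. Stroma and endothelium markers had 1 of 4 higher (Col1a2, 1.51, with adjusted p of 0.422 with the run of codes as a term, 0.0567 without EM replicate 1 and 0.0506 without EM replicate 2). Of gamma-delta T and NK markers Klrb1c fell and Eomes did not pass, and Hba-a2, the only erythroid marker measured, differed by -0.58 and did not pass.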
